A study of Mus musculus with 24 samples.

Results

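Oxidative phosphorylation genes were examined in mouse thymocytes that lacked one or both of the ternary complex factors Elk and Sap. The genes were taken by symbol. They comprised the Ndufa, Ndufb, Ndufc, Ndufs and Ndufv families, Cox4 to Cox8, Uqcr, Sdha to Sdhd and Atp5, and 90 of the 18193 genes measured had such a symbol. Of these, 36 are listed with complex I, 8 with its Ndufaf assembly factors, 4 with complex II, 8 with complex III, 17 with complex IV and 17 with complex V. Each gene was read from the probe set of highest mean among those that list that gene alone. Another 8 symbols of these families were listed only on probe sets that name several genes, and are not analysed here. Sorting by symbol placed Ndufa4 with complex I, although its protein is now regarded as part of complex IV.

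The respiratory chain of the inner mitochondrial membrane passes electrons from NADH, through complex I, and from succinate, through complex II, by way of complexes III and IV to oxygen. Complexes I, III and IV pump protons, and the returning protons drive complex V, the ATP synthase. Most subunits are encoded in the nucleus and made in every cell that respires, and a few have variants restricted to muscle, testis or lung. Thymocytes that carry both CD4 and CD8 (double positive, DP) are small cells that wait for a signal from their T cell receptor. Elk1 and Sap, whose gene is Elk4, are ETS family factors that bind DNA with serum response factor and are targets of ERK kinases.

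Thymic DP cells came from male Black 6J mice aged 8 weeks, of 4 genotypes: wild type (WT), Sap knockout (SapKO), Elk knockout (ElkKO) and the knockout of both (ElkSapKO). The cells were sorted with antibodies to CD4 and CD8, rested for 2 hours at 37 °C in RPMI containing 10% fetal calf serum, and placed for 30 minutes on plates coated with anti-CD3, which triggers the receptor complex, or on uncoated plates (untreated). Each of the 8 groups held 3 arrays (Mouse430_2), 1 for each of 3 numbered mice, so that 12 mice gave 24 arrays of total RNA. The labels name the knockouts without giving the alleles or saying whether any Cre was used, and they do not say whether a numbered mouse stands for pooled animals.

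Some properties of the arrays bear on every result. Signals are log2 values, and a level is a property of its probe set, so that levels of different genes were not compared. Elk4 read 10.25 to 10.82 in WT arrays, 6.88 to 7.59 in SapKO and 6.13 to 7.85 in ElkSapKO, whereas Elk1 read 4.03 to 5.23 in all arrays and gives no check of the Elk label. Xist, which male cells should lack, reached 5.07 and was taken as the mark of a signal near background. The array of untreated ElkSapKO mouse 2 stood apart: the interquartile range of its signals relative to the median array was 0.826, against 0.179 to 0.363 in the other arrays. The difference between the 3′ and 5′ control probe sets of Actb, a measure of RNA quality, was 0.22 ± 0.07 for WT and 0.20 ± 0.03 for SapKO (SD, n = 6 arrays). It was 0.50 ± 0.11 for ElkKO and 0.71 ± 0.19 for ElkSapKO. The control probe sets for the bacterial transcript dap were low (6.00 to 6.60) in 8 arrays, those from mice 1 and 2 of WT and mice 1 and 3 of SapKO, and high (8.81 to 9.66) in the other 16, which included every ElkKO and ElkSapKO array. Egr1, an immediate early gene, read 5.60 to 7.55 in untreated and 12.04 to 13.52 in stimulated arrays. Granulocyte and erythroid markers lay at or under the Xist mark (8 of 8 and 5 of 5 measured). All 11 measured DP markers lay above it, with summed linear signals of 42927 to 50787 in WT and 41310 to 49388 in ElkSapKO. All 14 measured markers of cycling cells also lay above it. At or under it lay 1 of 12 mature T cell, 5 of 9 CD4- CD8- thymocyte and 8 of 12 epithelial and stromal markers. So did 6 of 8 B cell markers, with summed signals of 3321 to 4790 in WT and 2758 to 5657 in ElkSapKO.

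Upstream sequences were searched because the deleted factors bind ETS sites and many respiratory chain genes are known to be driven by ETS factors, NRF1 and YY1. RefSeq promoters (GRCm38.p6, 250 bases before to 50 after each gene start) were at hand for 74 of the 90 genes, in 79 promoters. The ETS letters CCGGAAG occurred on either strand of 24.1% of these, against 8.86% of all 32851 promoters of that length. The NRF1 core GCATGCGC occurred in 13.9% against 2.71%, and the YY1 letters AAGATGGC in 12.7% against 2.75%. The CArG box bound by serum response factor had no match in the 79 promoters and a match in 1.63% of all promoters. Such matches are descriptions of letters and not of binding. The 150 bases before the start are shown for 4 genes with matches, in capitals, and for 2 genes that changed in the knockout of both factors, whose windows held no match. Cox6a1 and Uqcrh hold the ETS letters on the reverse strand, Atp5j holds a YY1 and then an ETS match that do not overlap, and Sdhb holds the NRF1 core. Ndufb3 rose and Atp5b fell, as described further on.
Cox6a1 (chr5:115348959-115349108, minus strand): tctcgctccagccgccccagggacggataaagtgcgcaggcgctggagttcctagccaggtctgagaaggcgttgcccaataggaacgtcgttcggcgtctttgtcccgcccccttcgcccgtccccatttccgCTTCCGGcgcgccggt
Uqcrh (chr4:116075071-116075220, minus strand): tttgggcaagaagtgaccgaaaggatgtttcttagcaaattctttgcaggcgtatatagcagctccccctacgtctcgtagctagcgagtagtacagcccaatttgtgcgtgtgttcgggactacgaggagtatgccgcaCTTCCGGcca
Atp5j (chr16:84834977-84835126, minus strand): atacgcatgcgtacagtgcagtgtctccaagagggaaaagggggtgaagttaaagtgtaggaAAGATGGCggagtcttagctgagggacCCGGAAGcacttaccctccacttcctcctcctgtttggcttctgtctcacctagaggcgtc
Sdhb (chr4:140961121-140961270, plus strand): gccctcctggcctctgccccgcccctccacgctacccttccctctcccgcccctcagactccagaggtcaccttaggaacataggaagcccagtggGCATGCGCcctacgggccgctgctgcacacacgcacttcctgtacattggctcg
Ndufb3 (chr1:58586247-58586396, plus strand): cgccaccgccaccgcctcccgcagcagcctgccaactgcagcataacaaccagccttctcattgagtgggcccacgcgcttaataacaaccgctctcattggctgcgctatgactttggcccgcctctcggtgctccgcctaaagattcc
Atp5b (chr10:128083157-128083306, plus strand): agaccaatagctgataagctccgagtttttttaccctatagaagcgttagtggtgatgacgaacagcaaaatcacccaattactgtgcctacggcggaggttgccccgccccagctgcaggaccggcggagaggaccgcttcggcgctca
The matched letters lie close to the start in Cox6a1, where they end at −10, and in Uqcrh, where they end at −4.

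Most of the genes were well detected, and their group means lay close together. Spans of other genes of like signal are not given here, so this may hold for bright probe sets in general. The mean over 24 arrays lay above the Xist mark for 86 of 90 genes, and 82 lay above it in every array. The means of the 8 groups spanned a median of 0.32 log2 per gene, with 80 genes under 0.5 and only Cox6b2 over 1, and the median SD between arrays of a group was 0.12. Cox6a1, the widely expressed form of subunit 6a of cytochrome oxidase, spanned 0.085 across group means, and its group means ran from 12.52 to 12.60. Ndufa3 and Uqcrfs1, the Rieske iron-sulfur protein of complex III, each spanned 0.119. By complex, the median span was 0.28 in complex V, 0.30 in complexes II and IV, 0.35 in complexes I and III and 0.39 among the Ndufaf factors. Genes with the widest spans were Cox6b2 (1.01), Cox7c (0.84), Cox8b (0.68), Ndufaf4 (0.64) and Uqcrq (0.61), named after their values were seen.

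**Figure D1:**
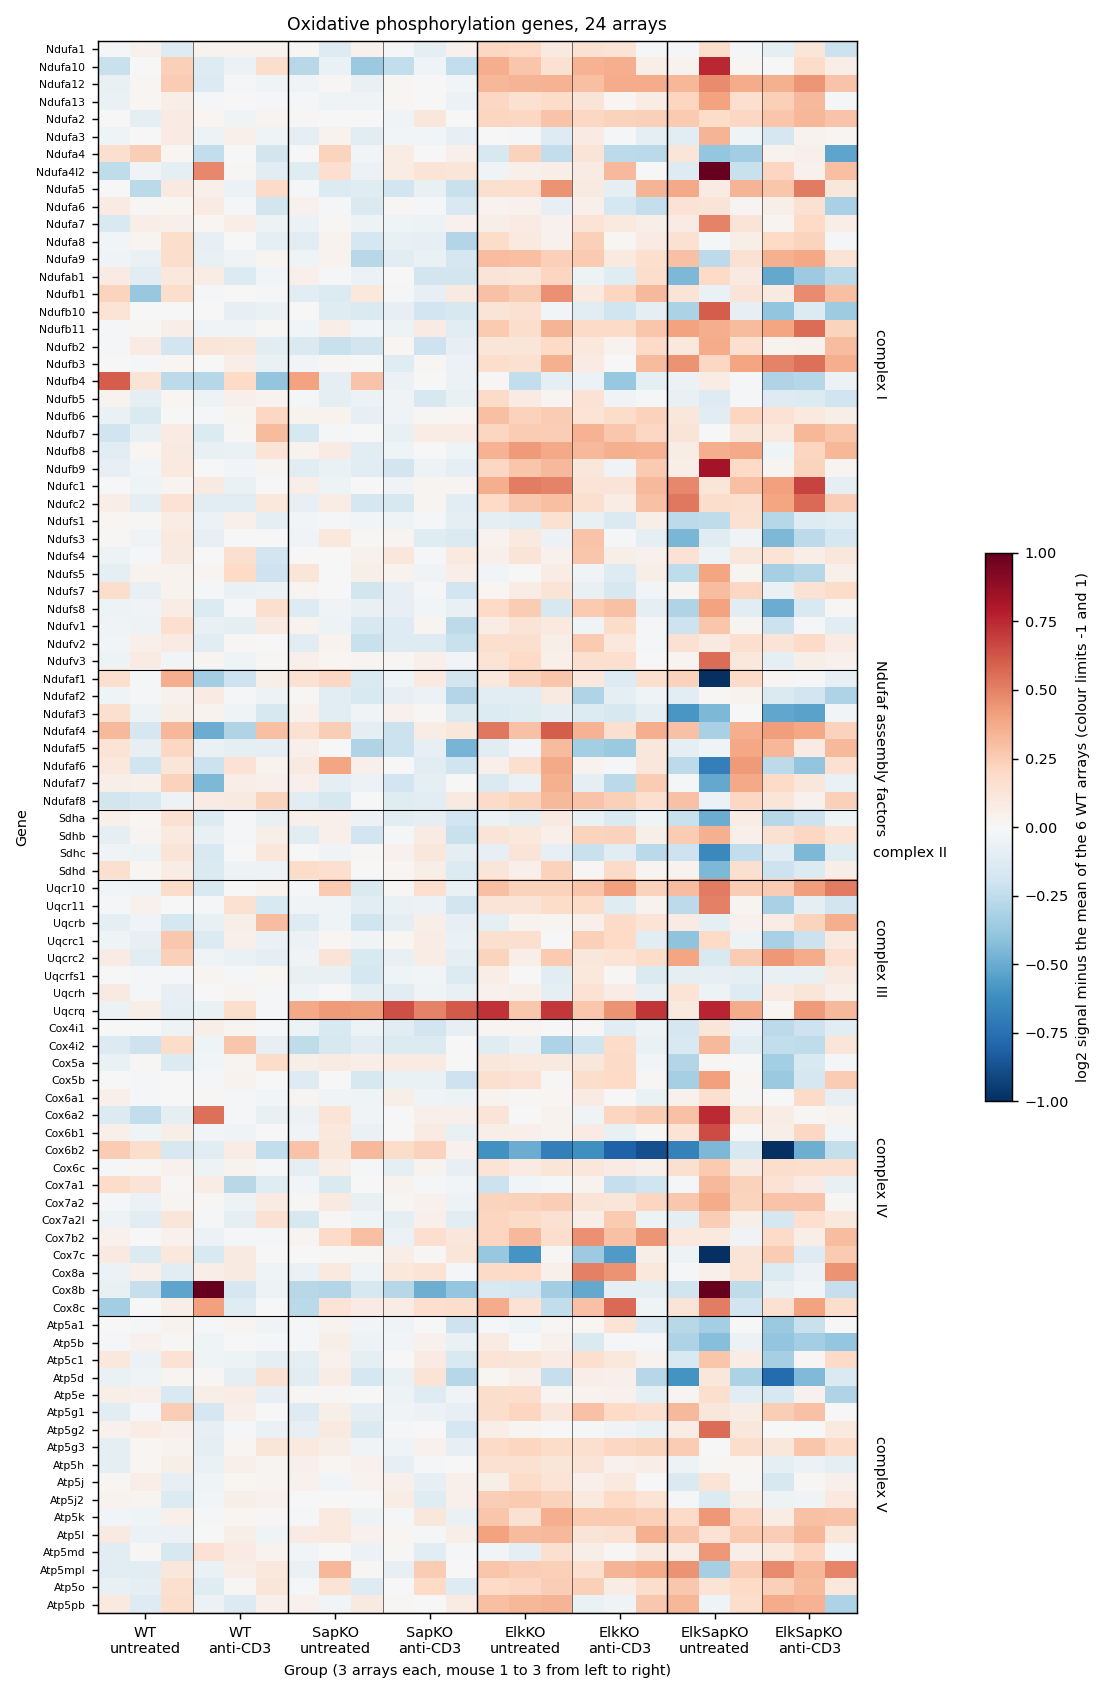
Each row is one of the 90 genes, ordered by complex, and each column one of the 24 arrays; colour is the log2 signal minus the mean of the 6 WT arrays, with colour limits of -1 and 1. Most cells are pale, a warm shade covers much of the ElkKO columns, Uqcrq is warm in most knockout arrays and Cox6b2 is blue in ElkKO, and the array of untreated ElkSapKO mouse 2 departs from its neighbours.

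Cox7c, a small structural subunit of complex IV, shows both a single outlying array and a steady difference between mice. In ElkSapKO it read 7.10, 4.93 and 7.28 untreated and 7.41, 7.03 and 7.41 stimulated, so that the low value belonged to untreated mouse 2 alone. In ElkKO it read 6.78, 6.57 and 7.17 untreated and 6.79, 6.59 and 7.22 stimulated, in the same order of mice in both states. WT arrays read 7.18 ± 0.13 untreated and 7.14 ± 0.12 stimulated (SD, n = 3), and SapKO arrays lay between 7.16 and 7.28. Cox8b, a muscle form of subunit 8, likewise read 6.84 in untreated ElkSapKO mouse 2 and 6.57 in stimulated WT mouse 1, while its other 22 arrays lay between 4.99 and 5.49.

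The tissue-restricted forms gave signals over a wide range of probe set levels. Cox4i2 (lung), Cox7a1 (heart and skeletal muscle) and Cox7b2 (testis) had means of 4.25, 4.56 and 2.97 and lay under the Xist mark in all 24 arrays. Ndufb4 of complex I, at 3.72, was the other gene whose mean was under it. Cox6a2 (heart and skeletal muscle), Cox6b2 and Cox8c (testis) lay above it in all 24 arrays, at means of 6.83, 6.92 and 6.55. Cox8b was above the mark in 21 arrays and Ndufa4l2, a relative of Ndufa4 known to be induced by hypoxia, in 23. Atp5g1, a gene for subunit c of the ATP synthase, had a mean of 9.23 and a span of 0.28.

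Whether the receptor signal altered these genes within 30 minutes was asked first. No member passed in any genotype or in the average over genotypes, where a gene was called at an adjusted p under 0.05 in limma after Benjamini-Hochberg adjustment over 18193 genes. Of all genes, 0.352% were called for WT, 0.363% for SapKO, 0.203% for ElkKO, 0.346% for ElkSapKO and 1.45% for the average. At an unadjusted p under 0.05 the members numbered 1, 0, 0, 4 and 4 in the same order. Of all genes 4.23%, 2.23%, 2.56%, 7.92% and 6.93% had such a p, against 1.11%, 0%, 0%, 4.44% and 4.44% of members. For 89 of 90 members the 95% interval of the averaged response lay within 1.5-fold in either direction. The median averaged difference was −0.03, and 25 of 90 members were above 0, against 53.3% of all genes.

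Uqcrb, a small subunit of complex III, had the smallest p in the averaged response. Its untreated arrays read 12.15, 12.20 and 12.06 for WT, 12.11, 12.19 and 12.04 for SapKO, 12.14, 12.27 and 12.27 for ElkKO and 12.32, 12.14 and 12.28 for ElkSapKO. Its stimulated arrays read 12.17, 12.29 and 12.55, then 12.14, 12.30 and 12.16, then 12.29, 12.43 and 12.38, then 12.31, 12.46 and 12.60. The stimulated array was the higher in 11 of 12 mice, and the ranges of the states overlapped. The averaged difference was 0.16 ± 0.06 (SE; limma adjusted p = 0.335). Ndufab1, the mitochondrial acyl carrier protein that also sits in complex I, and Ndufb10 were lower after stimulation in 12 of 12 mice, with differences of −0.17 and −0.18 (limma adjusted p = 0.543 and 0.571). These differences missed the threshold. The counts of mice compare the arrays of the same mouse, whereas these p-values come from a fit that did not pair them.

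Within genotypes the members with the smallest p were, in WT, Ndufaf8 (0.26), Cox6a2 (0.31) and Cox8b (0.56). Each was higher in 3 of 3 mice, Cox6a2 and Cox8b mostly through the stimulated array of mouse 1. In SapKO the members with the smallest p were Ndufaf6 (−0.28), Ndufb4 (−0.24) and Sdha (−0.15). In ElkKO they were Ndufc1 (−0.26), Atp5pb (−0.27) and Ndufaf5 (−0.26). All of these had a limma adjusted p of 1. In ElkSapKO they were Ndufab1 (−0.33), Ndufb10 (−0.36) and Cox7c (0.84, which rests on the low untreated array of mouse 2), with a limma adjusted p of 0.617. Tests of whether the response of a knockout differed from that of WT called 0% of all genes and no member in any of the 3 knockouts. At an unadjusted p under 0.05 there were 0, 0 and 2 members, the last 2.22% of members against 5.4% of all genes. The 2 were Cox6a2 (−0.66) and Cox8b (−0.95) in ElkSapKO (limma adjusted p = 0.703 for both). Both rest largely on the stimulated array of WT mouse 1 and the outlying untreated array of ElkSapKO mouse 2. The smallest p belonged to Cox8b (−0.70), Cox7a1 (0.27) and Ndufaf8 (−0.21) in SapKO, and to Ndufaf8 (−0.27), Ndufb6 (−0.22) and Cox7b2 (0.22) in ElkKO, each with a limma adjusted p of 1. In ElkSapKO the next was Ndufaf4 (0.56).

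Genotypes were compared in each state and on the mean of each mouse's pair of arrays. Loss of Sap alone left the members close to WT. The median member difference of mouse means was −0.03, against −0.02 for all genes, and 33 of 90 members were above 0, against 41.9% of all genes. No member was called in untreated cells, in stimulated cells or on mouse means, where 0.0824%, 0.0715% and 0.126% of all genes were. At an unadjusted p under 0.05 there were 1, 2 and 1 members (1.11%, 2.22% and 1.11%), against 1.65%, 2.97% and 2.28% of all genes. For 87 of 90 members the 95% interval of the mouse-mean difference lay within 1.5-fold.

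Uqcrq, the ubiquinone-binding protein subunit of complex III, had the smallest member p in all 3 SapKO comparisons. Its mouse means were 9.32, 9.51 and 9.33 in WT and 9.90, 9.85 and 9.90 in SapKO. They were 9.88, 9.75 and 10.10 in ElkKO and 9.45, 9.98 and 9.74 in ElkSapKO. SapKO and ElkKO mice lay above every WT mouse, and ElkSapKO mouse 1 fell within the WT range. The differences from WT were 0.49 ± 0.13, 0.52 ± 0.13 and 0.34 ± 0.13 (SE; limma adjusted p = 0.619, 0.129 and 0.137), so none passed. These comparisons share the WT mice, and the other 3 probe sets of Uqcrq had means under the Xist mark. Ndufa10 (−0.21) and Ndufv2 (−0.13), both of complex I, followed in SapKO (limma adjusted p = 1 for both). In the single states the members next to Uqcrq were Ndufa10 (−0.24) and Cox7b2 (0.15) in untreated cells and Cox8b (−0.66) and Ndufaf8 (−0.18) in stimulated cells.

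Loss of Elk alone went with small positive differences across most complexes, none of which passed singly. The median of the 90 members over the mean of each mouse was 10.18, 10.22 and 10.24 in WT and 10.18, 10.20 and 10.15 in SapKO. It was 10.39, 10.36 and 10.37 in ElkKO and 10.23, 10.30 and 10.32 in ElkSapKO. Every ElkKO mouse lay above every mouse of the other genotypes, and ElkSapKO mouse 1 lay among the WT mice. The median member difference from WT was 0.11, against −0.02 for all genes, and 66 of 90 members were above 0 (73.3%, against 45.9% of all genes). It was 0.12 in complex I (28 of 36 above 0), 0.11 in complex V (13 of 17), 0.10 in complexes III (7 of 8) and IV (11 of 17), 0.06 for the Ndufaf factors (5 of 8) and 0.03 in complex II (2 of 4).

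In ElkKO no member was called in untreated cells, in stimulated cells or on mouse means, where 0.0989%, 0.22% and 0.412% of all genes were. At an unadjusted p under 0.05 there were 18, 13 and 20 members (20%, 14.4% and 22.2%), against 7.21%, 11.4% and 12.3% of all genes. The member differences lay beside differences in RNA quality and in the dap controls: ElkKO arrays had the higher Actb 3′ to 5′ difference, and all had the high dap level that 2 of 3 WT mice lacked. WT mouse 3 was the only WT mouse of high dap level. Against it the 3 ElkKO mice gave a median member difference of 0.07. Of the members 68 of 90 were above 0, against 45.6% of all genes. With dap level as a block in the fit the median was 0.07, and with the Actb difference as a covariate it was 0.09. The share of RNA quality, of whatever the dap level marks and of genotype in these differences was not tested further, and in bulk RNA fewer cells of a type and less RNA per cell cannot be told apart.

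**Figure D2:**
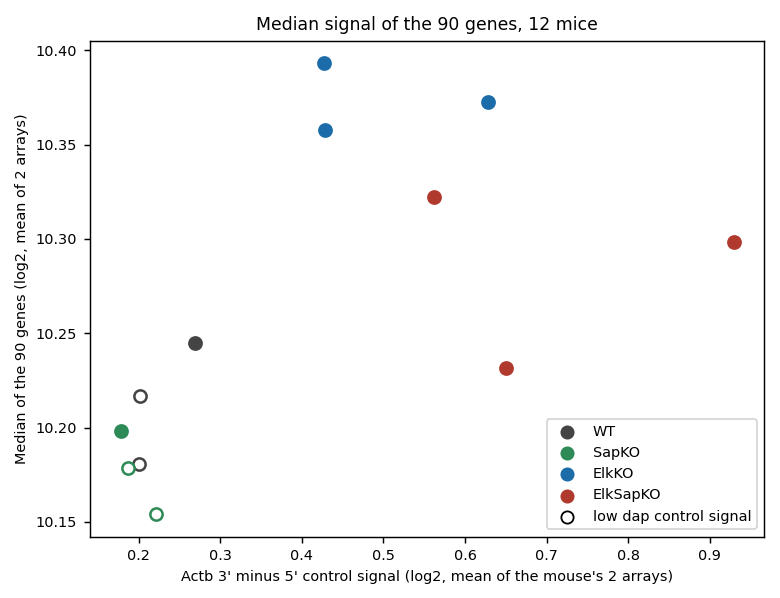
Each point is a mouse, with the Actb 3′ minus 5′ control signal on the horizontal axis and the median log2 signal of the 90 genes on the vertical axis, both as means of the mouse's 2 arrays; colour gives the genotype and open points the low dap level. The 3 ElkKO mice lie between 10.36 and 10.39 and the 3 WT mice between 10.18 and 10.24, and ElkKO and ElkSapKO mice lie to the right of all WT and SapKO mice.

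The ElkKO members with the smallest p on mouse means were Cox6b2, Uqcrq and Ndufa12. Cox6b2, the testis form of subunit 6b, read 7.25, 7.30 and 6.97 for WT, 7.41, 7.34 and 7.36 for SapKO, 6.56, 6.52 and 6.39 for ElkKO and 6.25, 6.70 and 6.97 for ElkSapKO. All ElkKO mice lay below all WT and SapKO mice, while ElkSapKO mice spread up to the lowest WT value. The ElkKO difference was −0.68 ± 0.15 (SE; limma adjusted p = 0.08), the ElkSapKO difference from WT −0.53 ± 0.15 (adjusted p = 0.0517) and that from SapKO −0.73 ± 0.15, which passed (adjusted p = 0.0248). Ndufa12 differed by 0.34 ± 0.09 in ElkKO (limma adjusted p = 0.139). In untreated cells Cox6b2 (−0.69), Uqcrq (0.59) and Atp5l (0.36), a membrane subunit of the synthase, had the smallest p, with limma adjusted values of 0.184 to 0.212. In stimulated cells Ndufa12 (0.41), Cox7b2 (0.43) and Cox6b2 (−0.67) did, with limma adjusted values of 0.0867 to 0.114, and Cox7b2 lay under the Xist mark throughout.

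The knockout of both factors was the one in which members were called, mostly higher, whereas most calls over all genes were lower. In untreated cells 1 of 90 members was called, higher (1.11%), against 0.753% of all genes higher and 2.69% lower (3.44% in all). In stimulated cells 6 members were called higher (6.67%) and 1 lower (1.11%), against 1.4% and 5.43% of all genes (6.83% in all). On mouse means 4 were higher than in WT (4.44%) and 1 lower (1.11%), against 1.68% and 6.22% of all genes (7.9% in all). Against SapKO 4 were again higher and 1 lower, beside 0.792% and 3.58% of all genes (4.38% in all). These shares are descriptions of a few calls, and single arrays moved them: leaving out 1 array gave 0 to 19 called members in untreated cells, the highest without untreated ElkSapKO mouse 3. In stimulated cells it gave 0 to 13, with 0 without stimulated ElkSapKO mouse 1 or 2 and 13 without the outlying array. Calls over all genes in the same refits are not given here, so these counts show nothing particular to the members. No member was called against ElkKO, where 0.137% of all genes were. At an unadjusted p under 0.05 there were 8 members against ElkKO (8.89%, against 12.2% of all genes). Against SapKO there were 28 (31.1%, against 23.4%). Against WT there were 24, 23 and 20 (untreated, stimulated, mouse means). These were 26.7%, 25.6% and 22.2% of members, against 23.4%, 21.5% and 25.2% of all genes. Over all comparisons 9 members were called at least once and 81 never. The median difference from WT on mouse means was 0.10, against 0.03 for all genes. Of the 90 members 56 were above 0 (62.2%, against 55.1% of all genes). Complex II had a median of −0.14 over 4 genes, which other probe sets did not all repeat, as described further on.

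**Figure D3:**
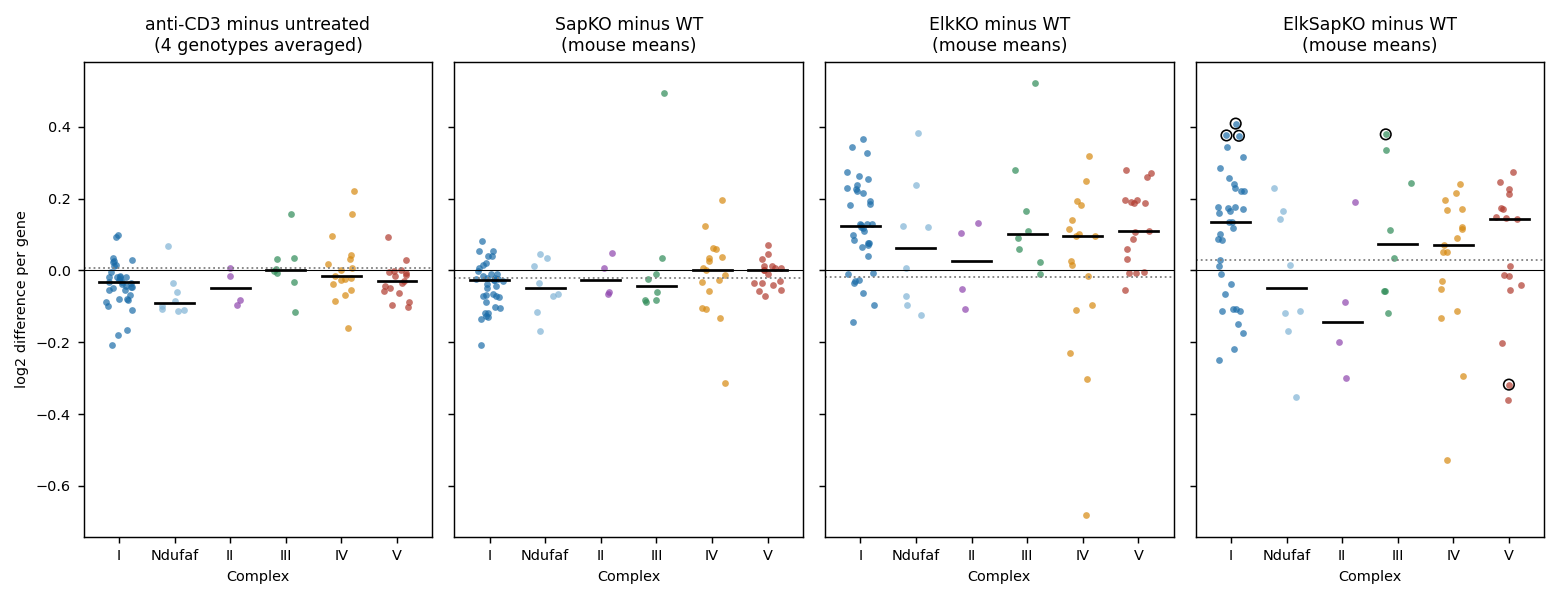
Each point is a gene, its complex on the horizontal axis and its log2 difference on the vertical axis, in 4 comparisons; black bars are medians by complex, the dotted line is the median of all genes and circled points are genes called at an adjusted p under 0.05. The stimulation and SapKO panels lie close to 0, most ElkKO points lie above 0, and the 5 circled genes are all in the ElkSapKO panel.

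Called members that were higher belonged to complexes I, III and IV, and all 5 of complex I are accessory subunits. Ndufb3, of the membrane arm, read 9.46, 9.52 and 9.38 in stimulated WT arrays and 9.94, 10.00 and 9.81 in stimulated ElkSapKO arrays. Its mouse means were 9.45, 9.47 and 9.42 for WT, 9.38, 9.46 and 9.42 for SapKO, 9.58, 9.53 and 9.79 for ElkKO and 9.92, 9.83 and 9.83 for ElkSapKO. The ElkSapKO mice lay above all others, and the ElkKO mice lay above all WT mice. Ndufb3 rose by 0.47 ± 0.11 in stimulated cells and by 0.41 ± 0.09 on mouse means (SE; limma adjusted p = 0.0131 and 0.023), and it was also higher than in SapKO (0.44, adjusted p = 0.0255).

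Ndufa12, of the peripheral arm, had mouse means of 10.53, 10.63 and 10.74 for WT, 10.62, 10.64 and 10.58 for SapKO, 10.95, 10.99 and 11.00 for ElkKO and 10.98, 11.09 and 10.96 for ElkSapKO. Both genotypes without Elk lay above both with it, with no overlap. The Actb 3′ to 5′ difference split the mice in the same way, at 0.18 to 0.27 with Elk and 0.43 to 0.93 without. The share of all genes that split so is not given here. Ndufa12 rose in ElkSapKO by 0.38 ± 0.09 on mouse means (SE; limma adjusted p = 0.0268) and by 0.43 in stimulated cells (adjusted p = 0.0139). The other Ndufa12 probe sets of high signal gave 0.24 and 0.31 in ElkSapKO and 0.22 and 0.31 in ElkKO, while one near background gave −0.10 in ElkSapKO.

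Ndufb11, of the membrane arm, had mouse means of 11.22, 11.23 and 11.29 for WT, 11.21, 11.32 and 11.18 for SapKO, 11.47, 11.43 and 11.55 for ElkKO and 11.64, 11.71 and 11.51 for ElkSapKO. Again the genotypes without Elk did not overlap those with it, which was also so for the Actb difference. Ndufb11 rose in ElkSapKO by 0.38 ± 0.09 on mouse means (SE; limma adjusted p = 0.0282) and by 0.41 in stimulated cells (adjusted p = 0.0173). Its probe sets disagreed: another gave 0.28, and one of like signal gave −0.18. Ndufb11 lies on chromosome X with 8 protein-coding genes between it and Elk1 in RefSeq, and was the member nearest to either deleted gene; Ndufa1 followed with 78 between. On chromosome 1, which holds Elk4, the nearest member was Ndufa10 with 155 genes between, and Ndufb3 had 420.

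Ndufc2, of the membrane arm, had mouse means of 10.93, 10.86 and 11.08 for WT, 10.84, 11.01 and 10.82 for SapKO, 11.13, 11.13 and 11.25 for ElkKO and 11.42, 11.33 and 11.16 for ElkSapKO. It rose by 0.44 in stimulated ElkSapKO cells and by 0.41 against SapKO (limma adjusted p = 0.0336 and 0.0446). Its mouse-mean difference from WT, 0.35, missed the threshold (adjusted p = 0.0614). The other Ndufc2 probe sets of high signal gave 0.19 and 0.10 in that comparison. Both Ndufc2 calls were lost when probe sets were averaged. Ndufa2, of the matrix arm, had mouse means of 10.21, 10.13 and 10.25 for WT, 10.18, 10.26 and 10.19 for SapKO, 10.41, 10.41 and 10.46 for ElkKO and 10.46, 10.45 and 10.44 for ElkSapKO. It rose by 0.30 in stimulated ElkSapKO cells (limma adjusted p = 0.0461). For both genes every mouse without Elk lay above every mouse with it, which was also so for the Actb difference.

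Uqcr10, a small subunit of complex III, had mouse means of 9.80, 9.88 and 10.00 for WT, 9.89, 10.11 and 9.79 for SapKO, 10.18, 10.21 and 10.12 for ElkKO and 10.17, 10.36 and 10.28 for ElkSapKO. It rose by 0.38 ± 0.11 on mouse means (SE; limma adjusted p = 0.0456) and by 0.43 in stimulated cells (adjusted p = 0.0347). Its dimmer probe sets gave 0.02 and 0.22. Cox6a2, the heart and muscle form of subunit 6a, read 6.61, 6.50 and 6.66 in untreated WT arrays and 7.04, 7.49 and 6.88 in untreated ElkSapKO arrays, the highest in mouse 2. The untreated groups did not overlap, and Cox6a2 rose by 0.55 ± 0.15 (SE; limma adjusted p = 0.0493). In stimulated cells WT read 7.30, 6.74 and 6.67 and ElkSapKO 6.82, 6.76 and 6.78, and these overlapped. The Cox6a2 call was lost when any of 21 of the 24 arrays was left out, among them the untreated array of ElkSapKO mouse 2.

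Atp5b, the catalytic beta subunit of the ATP synthase, was the member that fell against WT. Stimulated arrays read 12.16, 12.20 and 12.19 in WT, 12.18, 12.25 and 12.13 in SapKO and 12.06, 12.18 and 12.18 in ElkKO, against 11.81, 11.86 and 11.82 in ElkSapKO. Mouse means were 12.17, 12.22 and 12.20 for WT, 12.18, 12.25 and 12.14 for SapKO, 12.17, 12.20 and 12.21 for ElkKO and 11.85, 11.81 and 11.98 for ElkSapKO. Every ElkSapKO mouse lay below all 9 others, and the ElkKO mice lay among those of WT. Atp5b fell by 0.36 ± 0.10 in stimulated cells and by 0.32 ± 0.09 on mouse means (SE; limma adjusted p = 0.0333 and 0.042), and it differed from ElkKO by −0.31 (adjusted p = 0.26), the smallest p of that comparison. Ndufs3 (−0.29) and Ndufab1 (−0.30) followed there, with limma adjusted p of 0.35 and 0.371.

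**Figure D4:**
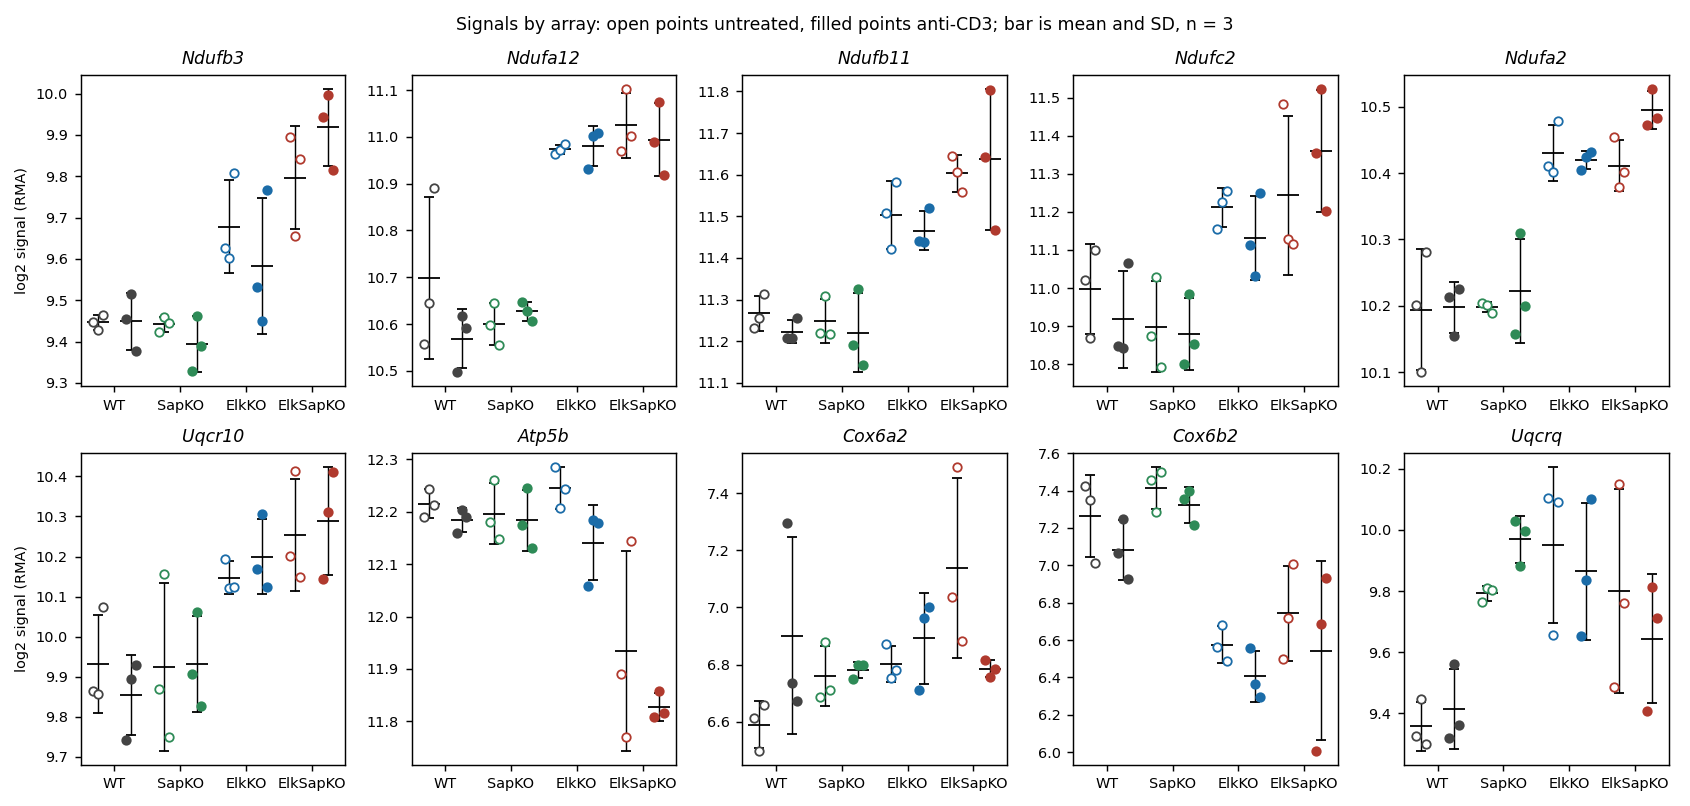
Each panel plots one gene's log2 signal in all 24 arrays by genotype, untreated as open and stimulated as filled points, with the mean and SD of 3 arrays; the vertical scales differ and do not start at 0. Ndufa12, Ndufb11 and Ndufa2 are higher in ElkKO and ElkSapKO than in WT, Atp5b is low only in ElkSapKO, and Uqcrq is higher in SapKO and ElkKO than in WT.

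The calls and the sizes of these differences behaved differently when array properties entered the fit. With dap level as a block, or with the Actb difference as a covariate, 0 of the 18 calls was kept, and all 18 values kept their direction. The values with the block were 61.8% to 110% of those without it, and with the covariate 40.2% to 94.7%. The part of the array properties in the differences was not tested. For Ndufb3 on mouse means the difference was 0.40 with the block (limma adjusted p = 0.172) and 0.30 with the covariate (adjusted p = 0.764), and for Atp5b it was −0.35 and −0.20 (adjusted p = 0.184 and 0.803). WT mouse 3, of high dap level, lay outside the ElkSapKO range for Ndufb3 (9.42), Ndufa12 (10.74), Ndufb11 (11.29), Uqcr10 (10.00) and Atp5b (12.20). These genes were called against WT mice that included this mouse, so its place was largely set by the choice of genes. Its Actb difference was 0.27, against 0.56 to 0.93 in the ElkSapKO mice. Against WT mouse 3 alone the median member difference of ElkSapKO was 0.06, against 0.02 for all genes. Of the members 55 of 90 were above 0, against 52.2% of all genes. With the Actb covariate the median member difference was 0.0007. Single mice also mattered on mouse means: leaving out ElkSapKO mouse 1, WT mouse 1 or WT mouse 2 left 0 calls, leaving out WT mouse 3 left 1, and leaving out ElkSapKO mouse 3 gave 8 higher and 6 lower. Without ElkSapKO mouse 2, the mouse of the outlying array, 4 were higher and 0 lower. Calls over all genes without these mice are likewise not given here.

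The remaining subunits gave smaller differences that missed the threshold. Sdhc, a membrane anchor of complex II, had mouse means of 9.16, 9.22 and 9.37 in WT and 9.09, 8.70 and 9.07 in ElkSapKO, below all WT mice (−0.30, limma adjusted p = 0.127). Sdhb, the iron-sulfur subunit, differed by 0.19 and Sdha, the flavoprotein, by −0.20 (limma adjusted p = 0.258 and 0.259). Other probe sets above the Xist mark gave −0.002 for Sdhc and −0.017 and 0.30 for Sdha. For Sdhd the probe set used gave −0.09 and the other 0.20. The lower complex II readings in ElkSapKO therefore depend on the probe set. Cox7a2 of complex IV differed by 0.24 and Atp5l by 0.23 (limma adjusted p = 0.122 and 0.112). Ndufaf3 differed by −0.35 in ElkSapKO (limma adjusted p = 0.106) and Ndufaf4 by 0.38 in ElkKO (adjusted p = 0.274). Ndufaf8 differed by 0.24 in ElkKO (limma adjusted p = 0.333). The other genes with the highest mean of their complex also missed the threshold in ElkSapKO: Cox6a1 differed by 0.05, Uqcrh, the hinge protein, by 0.03, Uqcrb by 0.11, Ndufa3 by 0.01, Atp5h by −0.04 and Atp5a1, the alpha subunit, by −0.20, with limma adjusted p of 0.236 or more. In untreated ElkSapKO cells Ndufb11 (0.34) and Ndufa12 (0.33) followed Cox6a2 (limma adjusted p = 0.0613 and 0.0641).

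Members with the ETS letters in their promoters were set beside those without. In ElkKO all 19 with the letters had a difference above 0, from 0.02 to 0.28 with a median of 0.11, and the 55 without ran from −0.68 to 0.38 with a median of 0.11 and 36 above 0. In ElkSapKO the medians were 0.05 (11 of 19 above 0) and 0.10 (35 of 55). In SapKO they were −0.01 and −0.03. None of the members called on mouse means against WT had the letters.

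Other probe sets of the same genes gave a second reading. Of the 90 members, 51 had more than 1 single-symbol probe set, and 76 further probe sets had means above the Xist mark. In ElkKO 60 of these 76 had the sign of the probe set used, and their median difference was 0.11. In ElkSapKO 44 of 76 had the same sign, and the median was 0.05. Ndufb3, Atp5b and Ndufa2 had a single probe set.

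Genes around the respiratory chain were described from lists. Of all genes 1.45% were called in the averaged response. In ElkSapKO against WT on mouse means 1.68% were called higher and 6.22% lower. Of 36 measured assembly factors outside the families above, 2 rose and 1 fell with stimulation on average: Ttc19, a complex III factor (0.56), Hccs, the cytochrome c heme lyase (0.37), and Cox15, of heme A synthesis (−0.26), in 12 of 12 mice each (limma adjusted p = 0.00196, 0.00527 and 0.0195). In ElkSapKO against WT on mouse means none rose and 3 fell (8.33%, against 6.22% of all genes called lower): Uqcc1 (−0.60), Oxa1l, an insertase of the inner membrane (−0.46), and Cox10, of heme A synthesis (−0.58), with a list median of −0.08. Of 22 electron carriers and companions 1 rose, Cycs, which encodes cytochrome c (0.45, limma adjusted p = 0.0285), and its ElkKO difference was 0.50 (adjusted p = 0.0715). Of 17 measured genes of the tricarboxylic acid cycle none was called on mouse means, with a median of −0.09, and Ogdh fell in stimulated ElkSapKO cells.

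Of 17 measured glycolytic genes none rose and 3 fell in ElkSapKO on mouse means (17.6%, against 6.22% of all genes called lower): Pfkl, of phosphofructokinase (−0.87), Slc2a3, a glucose transporter (−0.85), and Aldoa, an aldolase (−0.45), with a median of −0.27 (limma adjusted p = 0.0179, 0.0179 and 0.0228). Of 20 regulators of mitochondrial genes 1 rose, Creb1 (0.53, limma adjusted p = 0.032), beside 1.68% of all genes called higher. In the same list 2 fell (10%, against 6.22% of all genes called lower). They were Gabpb1, a subunit of the ETS factor GABP (−0.67), and Nrf1 (−0.47), with limma adjusted p of 0.0134 and 0.025. The list median was −0.15, and these are a few calls. Of 9 antioxidant genes 1 fell (11.1%, against 6.22% of all genes called lower): Gsr, glutathione reductase (−0.60, limma adjusted p = 0.0112). On mouse means no gene of these lists was called in SapKO or ElkKO. The same array properties accompany these values. Mature T cell markers were lower as well, with 5 of 12 measured called lower in ElkSapKO and summed signals of 3757 to 4221 against 4043 to 5840 in WT, as were Cd4 and Cd8a among the 11 DP markers. Of all genes 6.22% were called lower in ElkSapKO on mouse means. Of 15 macrophage and dendritic cell markers 8 lay at or under the Xist mark, Fcgr3 among them. Mpeg1 and Fcgr3 were called higher. The summed signals were 532 to 1587 in ElkSapKO, 808 to 1203 in SapKO and 663 to 827 in WT. Single genes of longer lists were called as well. Cd44, of 9 measured CD4- CD8- thymocyte markers, and Tyms, of 14 of cycling cells, were called higher. The endothelial gene Pecam1, of 12 epithelial and stromal markers, was called lower. Summed signals in ElkSapKO and WT were 581 to 926 and 727 to 897 for the CD4- CD8- list. For cycling cells they were 23748 to 29690 and 23192 to 27086, so both lists overlapped. The epithelial and stromal list gave 553 to 738 and 734 to 903. The part of these markers in the differences of the respiratory chain genes was not tested.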

How the data were processed

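The deposited values are log2 signals, for 45101 probe sets on each of 24 Mouse430_2 arrays, made by RMA with the affy package per the submitters' processing notes. RMA corrects background, quantile normalizes and summarises probes, which removes shifts shared by all genes. The version of affy and any build were not given in the sources used here. Of these probe sets, 64 are controls and entered no test. Probe sets listed with a single symbol (34945; 932 had several and 9160 none) were reduced to the one of highest mean per gene, giving 18193 genes. All 90 members matched a RefSeq gene identifier.

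Genes were tested in limma 3.58.1 (R 4.3.3), with a mean for each of 8 groups (16 residual degrees of freedom) or, on the mean of each mouse's pair of arrays, for each of 4 genotypes (8 residual degrees of freedom). These gave 19 comparisons. P values are two-sided and adjusted within a comparison over all genes by the Benjamini-Hochberg method, and intervals are 95%. With 3 mice a group the number of arrays limits the precision. The fit of 8 groups treated all arrays as independent, and its p-values rest on the spread between arrays of a group. Its response p-values therefore do not use the pairing of a mouse's untreated and stimulated arrays, which the counts of mice do use. On mouse means the p-values measure the spread between these mice. The labels do not say whether a numbered mouse is a pool. The fits were run on simulated data with 200 changed genes and independent noise for each array. For ElkKO against WT they recovered 81% (untreated) and 91% (mouse means) of 2-fold changes, with 9 and 15 false calls. The simulation held no mouse, dap or RNA quality effect and no outlying array, so it cannot show how the fits behave with them.

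The members and gene lists were chosen with earlier results of these data known. Named genes are, per comparison, up to 10 called members each way or the 3 of smallest p; per complex, the 2 of highest mean and the 2 of smallest adjusted p; the tissue-restricted forms; up to 3 called genes of each other list; and Elk1, Elk4 and Egr1. Untreated and stimulated arrays of a numbered mouse are paired by the labels. Over 10123 genes, deviations of the 12 pairs correlated at −0.00981 to 0.832, with 10 pairs over 0.1, and for 9 mice the untreated array was most like that mouse's own stimulated array. The exceptions were ElkKO mice 1 and 2 and ElkSapKO mouse 2. Alternatives were mouse as a block, other fits, scalings and probe set rules, dap level and the Actb difference, and leaving out each array or mouse. Figures were drawn with matplotlib 3.10.9. Genes on shared probe sets were left out because their signal cannot be assigned.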

Additional observations from a re-analysis of the deposited data

How the results depend on the processing

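The count of 0 members called in every response and response difference was the same under all alternatives except array weights, which called 1 in the averaged response; the fit with mouse as a paired replicate block also called 0. SapKO comparisons stayed at 0 apart from 1 call on mouse means with array weights. Array weights gave 11, 5 and 21 members in ElkKO (untreated, stimulated, mouse means) and 30, 21 and 2 in ElkSapKO. With dap level as a block, with the Actb covariate, or with only the compared groups in the fit, the ElkSapKO comparisons with WT and with SapKO called 0; with only those groups ElkKO on mouse means called 2. Averaging probe sets gave 2 in untreated ElkSapKO cells and 8 on mouse means, and dropping low signals gave 4 in untreated cells. Leaving out 1 array or mouse gave 0 to 1 (untreated), 0 to 2 (stimulated) and 0 to 2 (mouse means) in ElkKO. In ElkSapKO it gave 0 to 19, 0 to 13 and 0 to 14 against WT, 0 to 12 against SapKO and 0 to 3 against ElkKO. The 19 came without untreated mouse 3 and the 13 without the outlying untreated array of mouse 2, which also gave 2 calls in stimulated and 1 in untreated ElkKO cells. Without ElkSapKO mouse 3 there were 12 against SapKO and 3 against ElkKO. Stimulated ElkSapKO calls fell to 0 without stimulated ElkSapKO mouse 1 or 2, and those against SapKO to 0 without any SapKO mouse or ElkSapKO mouse 1. Calls over all genes under these alternatives are not given here, so the member counts show nothing particular to the members. The causes were not tested. Called members kept their direction in all 438 refits, and 202 of these lost the call. Many refits could not change the direction. Leaving out an array or mouse of another group, or keeping only the compared groups, leaves the difference as it was. The count of kept directions is therefore no measure of stability. The median ElkKO difference on mouse means ranged from 0.074 to 0.145.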
